A study of Homo sapiens with 46 samples.

Results

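RNA of the nucleoplasm was compared between endoderm and the human pluripotent stem cells (hPSC) from which it was made. The members were chosen by their labels alone. They were 3 endoderm and 3 hPSC nucleoplasm libraries, 6 of the 46 libraries of a series that split hPSC and 3 germ layers into nucleus, nucleoplasm, chromatin and cytoplasm. The hPSC were H1, an established human embryonic stem cell line, kept in mTeSR1 medium on Matrigel. The endoderm came from the same line after 5 days in RPMI with GlutaMax, non-essential amino acids, b-mercaptoethanol, fetal bovine serum, WNT3A and activin A at 100 ng/ml. All fractionation buffers of both groups held α-amanitin, an inhibitor of RNA polymerase II. Nucleoplasm was the supernatant left when nuclei had been lysed with detergent and urea, and the pellet was the chromatin fraction. A single line was studied, and the labels do not say whether replicates were separate cultures. The p-values therefore measure the spread between these libraries, which may be technical.

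Definitive endoderm is the germ layer that forms the lining of the gut and the liver, pancreas and lung. In culture it is obtained from pluripotent cells with activin A, which binds the receptors of Nodal and signals through SMAD2 and SMAD3, together with a Wnt signal. SOX17, FOXA2, GATA4 and GATA6 are the transcription factors that define it, and CXCR4 marks its surface. The nucleoplasm holds RNA that has left chromatin: mature mRNA on its way to the pores, and noncoding RNA that stays in the nucleus.

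The 6 libraries held 12549571 to 14380588 estimated counts, of which 1.09% to 2.95% in endoderm and 4.68% to 7.73% in hPSC had no Ensembl gene. Mitochondrial transcripts took 10.5% to 12.2% of the counts in endoderm nucleoplasm and 11.3% to 12.2% in hPSC nucleoplasm, against at most 0.621% in the cytoplasm libraries of both cell types. The nucleoplasm fraction therefore did not hold RNA of the nucleoplasm alone. How much RNA of other genes came from outside the nucleus was not tested. The nuclear lncRNA MALAT1 took 0.0760% to 0.111% of endoderm nucleoplasm counts and 0.00955% to 0.0176% of endoderm cytoplasm counts. In hPSC these shares were 0.0616% to 0.11% and 0.0226% to 0.0278%. FN1 alone took 4.92% to 5.63% of the endoderm nucleoplasm counts and 0.0255% to 0.028% of those of hPSC.

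Each cell type's table was built on its own set of assembled transcripts, so a gene can be listed for one cell type only and then has no value, rather than a 0, in the other. There were 13644 Ensembl genes for endoderm and 15115 for hPSC, and 11760 were in both tables. Most of the factors that define endoderm were listed in the endoderm table only, so their rise could not be tested. Their levels there are in CPM, the usual scaling of a gene's counts to its library's total, here adjusted by TMM (a normalization that sets the bulk of genes level between libraries), and all 4 defining factors were present. SOX17 was at 64.7, 61.1 and 74.1 CPM, FOXA2 at 13, 15.1 and 15.2, GATA4 at 70.8, 83.2 and 71.2, and GATA6 at 48.1, 46.2 and 44.8. CXCR4 was at 36.3, 32.6 and 36.6 CPM. In the hPSC table SOX2, a core factor of pluripotency without a row for endoderm, was at 250.1, 299.7 and 253 CPM.

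Of 11420 genes in both tables that passed the low-count filter, 8871 (77.7%) differed between endoderm and hPSC nucleoplasm by edgeR's quasi-likelihood test at a Benjamini-Hochberg adjusted p under 0.05. Of the genes tested, 38.5% rose in endoderm (4400) and 39.2% fell (4471). Such a share of called genes is the background against which each list below has to be read. In 9026 genes (79%) the 3 endoderm values did not overlap the 3 hPSC values, with endoderm higher in 39.2% and lower in 39.9%. In bulk RNA, fewer cells that express a gene and less of its RNA per cell cannot be told apart.

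The split of calls rested on the scaling. TMM placed the median gene at a log2 change of -0.03, and scaling to total counts placed it at -0.62, a shift of -0.59. On total counts 2479 genes rose (21.7%) and 7147 fell (62.6%), and limma on log2(TPM + 1) had 3158 rising and 5239 falling. A total of 1158 genes called higher, all with a log2 change under 0.60, took the lower direction there, and 0 went the other way. Changes below are relative to TMM, and those under about 0.60 upwards depend on it.

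The genes named first are those with the largest called rises among genes whose groups did not overlap. CST1, which encodes a secreted inhibitor of cysteine proteases, was at 562, 654 and 644 CPM in endoderm and at 0.29, 0.0652 and 0.313 CPM in hPSC (log2 change 11.39 ± 0.16 SE, n = 3 against 3, adjusted p = 3.1e-21 by edgeR). It lies on chromosome 20 at 23747553 to 23751268 (GRCh38, GENCODE release 29). FN1, fibronectin of the extracellular matrix, was at 70399, 62194 and 63838 CPM in endoderm against 214, 231 and 234 in hPSC (8.18 ± 0.10, adjusted p = 9.66e-22). It lies on chromosome 2 at 215360440 to 215436172. Every endoderm library stood far above every hPSC library for both genes.

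WLS, the carrier that takes Wnt proteins to the cell surface, was at 1377, 1385 and 1390 CPM in endoderm and at 3.4, 2.35 and 3.57 in hPSC (8.80 ± 0.11, adjusted p = 9.66e-22). COL9A2, a chain of type IX collagen, was at 1178 to 1274 CPM against 4.07 to 5.54 (7.96 ± 0.10). BMPER, a secreted protein that binds BMPs, was at 222 to 228 CPM against 0.391 to 0.652 (8.75 ± 0.13). TNFRSF19, a receptor of the TNF receptor family, was at 153 to 176 CPM against 0.587 to 0.724 (7.94 ± 0.14). EGFLAM, a matrix protein, was at 80.7 to 88.4 CPM against 0.13 to 0.435 (8.13 ± 0.18), and PCDH7, a protocadherin, at 48.3 to 54.5 against 0 to 0.435 (7.94 ± 0.24). Lack of overlap was a condition for naming these genes and the falls below.

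TBX3, a T-box transcription factor, was at 168, 152 and 168 CPM in endoderm and at 0.0724, 0.196 and 0.313 in hPSC (9.60 ± 0.17). ATP9A, a phospholipid flippase, was at 99.4 to 118 CPM against 0 to 0.717 (8.18 ± 0.23). CNTN4, a contactin of the cell surface, was at 19.1 to 22.8 CPM and had 0 counts in all hPSC libraries, so that it was at least 104-fold higher against a floor of 3 counts per library. A few counts at most were seen in hPSC for the other named rises. BMP6, a ligand of the BMP family, was at 80 to 82.7 CPM in endoderm, RASGEF1B at 29.7 to 31.8, FGF17 at 24.7 to 32.8 and SENP7, a SUMO protease, at 11.3 to 23.4.

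Unnamed genes with large rises included ENSG00000280614, a lincRNA on chromosome 21 at 8393419 to 8394341. It was at 7491, 25073 and 16392 CPM in endoderm and at 0.797, 0.783 and 1.25 in hPSC (14.05 ± 0.43). It lies inside ENSG00000280441 on the opposite strand, and whether reads of 1 of these genes were counted for the other was not tested. ENSG00000276965, a misc_RNA gene on chromosome 22, was at 106, 132 and 109 CPM and had 0 counts in hPSC (at least 578-fold higher).

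The largest falls likewise left levels at or near 0 in endoderm. DOT1L, the histone H3 methyltransferase of chromatin, had 0 counts in all endoderm libraries and 106, 115 and 113 CPM in hPSC, at least 400-fold lower in endoderm (chromosome 19, 2164149 to 2232578). ANGEL1 (38.8 to 45.1 CPM in hPSC) and UBR1, a ubiquitin ligase (29.8 to 33.9 CPM), also had 0 counts in endoderm, at least 149-fold and 115-fold lower. U2AF1, the small subunit of the splicing factor that reads the end of introns, had 0 counts in endoderm and 41.2 to 53.4 CPM in hPSC. U2AF1 has a near-identical copy in the annotation, so its value is uncertain.

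MIAT, a nuclear lncRNA, was at 0.0882, 0.0905 and 0 CPM in endoderm and at 391, 426 and 359 in hPSC. GTF2A1, a general transcription factor, was at 0.0905 to 0.441 CPM against 71.5 to 80.4 (-8.06 ± 0.19), and PTPN9, a phosphatase, at 0 to 0.398 against 45.9 to 50.2 (-7.72 ± 0.24). RESF1, a regulator of retroelements, was at 0.353, 0.362 and 1.09 CPM against 122, 120 and 126 (-7.69 ± 0.17). CECR2, a bromodomain protein, was at 0.453 to 0.705 CPM against 95.7 to 112 (-7.51 ± 0.16), and MT1X, a metallothionein, at 0.0882 to 0.362 against 28 to 59.4 (-7.66 ± 0.44). ZNF107, NFXL1, BDP1, CWF19L2 and PYGM were at no more than 0.181 CPM in any endoderm library and at 13.5 to 46.9 CPM in hPSC. The deposited TPM of CWF19L2 did not show that fall, at 11.98, 0 and 9.71 in endoderm against 8.67, 7.39 and 7.93 in hPSC, and limma on TPM gave a change of -0.79 without a call. The unnamed ENSG00000278996, a lincRNA on chromosome 21 at 8197620 to 8227646, was at 1.85 to 3.62 CPM against 5372 to 9582 (-11.51 ± 0.25). The lincRNA ENSG00000280441 of the same chromosome went the other way, at 5448 to 16795 CPM in endoderm against 6.3, 4031 and 2.57 in hPSC. Whether copies of a repeated sequence shared these reads was not tested. ENSG00000254277, also a lincRNA, was at 0.362 to 0.696 CPM against 246 to 269 (-8.83 ± 0.14).

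**Figure D1:**
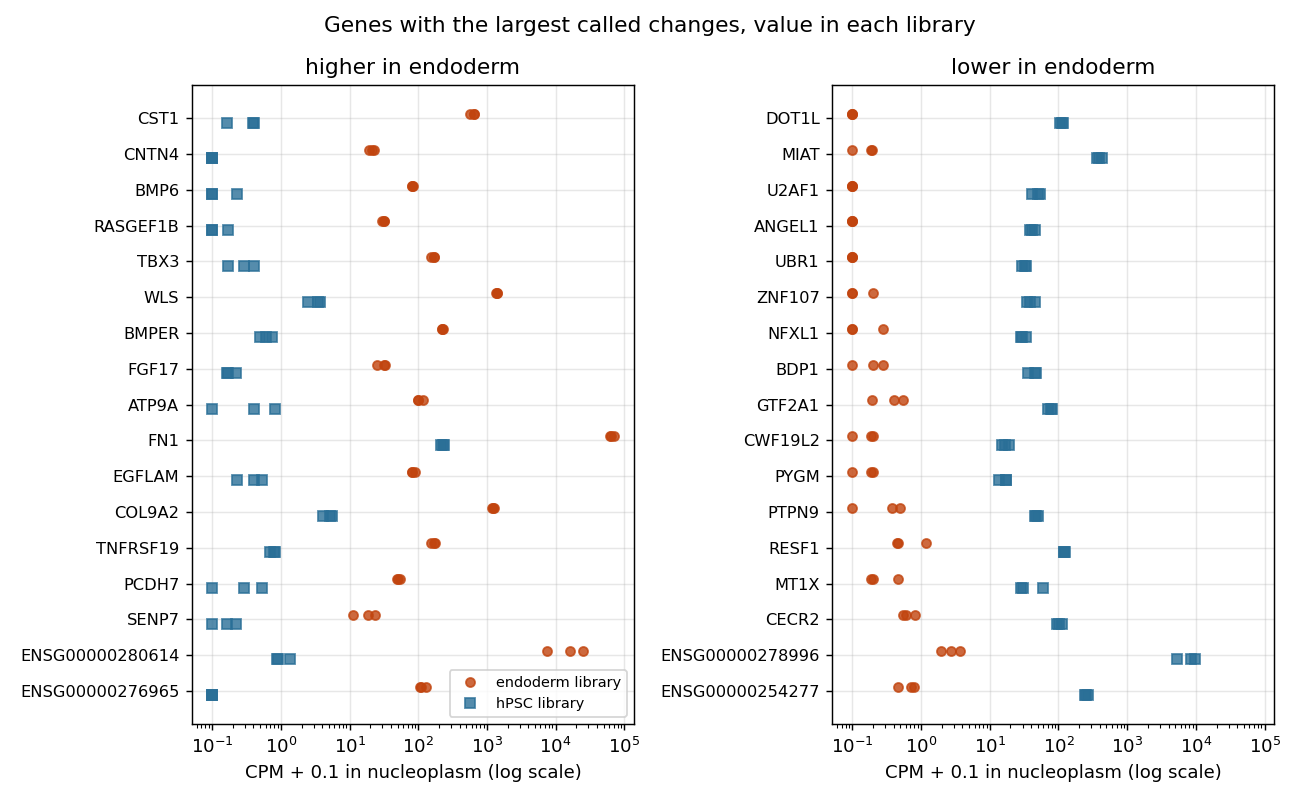
Level of each gene named for its large change in each of the 6 nucleoplasm libraries, as CPM + 0.1 on a logarithmic axis. Circles are endoderm libraries and squares hPSC libraries. The genes were chosen to have groups without overlap, and most of the genes lower in endoderm sit at or near 0 there.

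The transcripts behind these values differed between the tables. Of all genes tested, 77.1% had at least 1 Ensembl transcript listed in both tables. Among called rises of 3 or more on the log2 scale the share was 44.9% (169 of 376), and among called falls of 3 or more it was 22.4% (51 of 228). Of the 15 named falls with a symbol, U2AF1 and ANGEL1 shared a transcript between the tables, and the other 13 were compared on different transcripts in endoderm and hPSC. Of the 15 named rises, 8 were compared on different transcripts: CNTN4, BMP6, RASGEF1B, BMPER, ATP9A, EGFLAM, PCDH7 and SENP7. The unnamed genes given with these rises and falls had no shared transcript either. An isoform change and a change in what was assembled cannot be told apart there. When counts were limited to transcripts in both tables, 34.2% of 8748 genes rose and 35% fell. There 159 of 163 large rises and 49 of 50 large falls kept their sign. Of called genes of any size, 2976 of 3256 rises and 3230 of 3520 falls did so. In 104 of these rises and 146 of these falls the opposite direction was called.

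**Figure D2:**
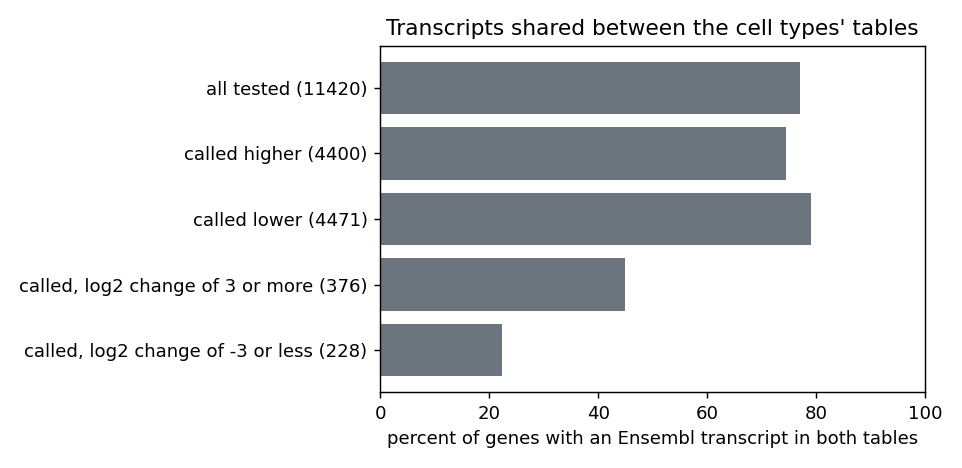
Percent of genes with at least 1 Ensembl transcript in both the endoderm and the hPSC table, for all genes tested and for the called genes by direction and size, with the number of genes in parentheses. The share is 77.1% for all genes tested and 22.4% for falls of 3 or more on the log2 scale.

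Genes with at least 50% of their counts on shared transcripts in both groups were also ranked by their change over all transcripts. The largest rises among them were again CST1, TBX3, WLS, FGF17, FN1, COL9A2 and TNFRSF19, followed by 3 more. On shared transcripts alone FGF17 changed by 7.46 and TNFRSF19 by 7.28. GJB1, a gap junction protein, was at 38.6 to 41.4 CPM in endoderm against a mean of 0.204 ± 0.0826 in hPSC (SD, n = 3), a rise of 7.57 ± 0.20. S100A14 was at 168 to 185 CPM against 0.435 to 1.31 (7.46 ± 0.15). VTN, vitronectin of plasma and matrix, was at 74.2 to 85.6 CPM against 0.362 to 0.563 (7.43 ± 0.16). Groups without overlap and a call on shared transcripts were conditions for these 10 genes and for the falls below.

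The largest falls on shared transcripts were smaller. RN7SL1, the RNA of the signal recognition particle, was at 3.62, 13.4 and 8.46 CPM in endoderm and at 386, 1279 and 833 in hPSC (-6.62 ± 0.38, adjusted p = 3.17e-12 by edgeR). The replicates of each group differed widely, within groups that the ranking required not to overlap. Of 15 small structural RNAs RN7SL1 alone was in both tables, and 5 were in the endoderm table only. Whether reads moved between related copies was not tested. MT2A, a metallothionein, was at 0 to 0.705 CPM against 16.3 to 19.7 (-5.82 ± 0.33). ZNF721 was at 1.89 to 4.41 CPM against 74.6 to 98.7 (-4.84 ± 0.17). Its deposited TPM showed a smaller fall, at 21.2, 11.8 and 9.57 in endoderm against 30.3, 36 and 24.2 in hPSC. TXNIP, which binds thioredoxin and restrains glucose uptake, was at 6.35, 5.61 and 5.37 CPM against 63.9, 63.8 and 65.8 (-3.48 ± 0.11). PPARGC1B, a coactivator of mitochondrial genes (-4.51, and -3.83 on shared transcripts alone), TOX (-4.33), APOBEC3B, a cytidine deaminase (-3.94), RAB6B (-3.91), PIPOX (-3.69) and the lincRNA ENSG00000248605 (-4.00) completed these 10. The fall of ENSG00000248605 was also smaller in TPM, at 1.63 to 2.62 in endoderm against 3.88 to 5.5 in hPSC. Selection by shared transcripts was made after the values were seen.

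Of 17 transcription factors of endoderm, 5 were in both tables and tested: 3 rose, 1 fell and 1 did not pass. LHX1 was at 5.25 to 6.47 CPM in endoderm and had at most 2 counts in an hPSC library. PRDM1, a repressor that marks early endoderm, was at 13.9 to 16.4 CPM against 0.563 to 1.45 (4.13 ± 0.25, with no shared transcript), and MIXL1, a primitive streak factor, at 2.56 to 4.97 against 0.0724 to 0.375 (4.06 ± 0.47). OTX2, which pluripotent cells also express, fell from 38.5 to 44.5 CPM in hPSC to 8.06 to 11 in endoderm (-2.12 ± 0.12). FOXA3 was at 19.5 to 20.5 CPM against 20.1 to 21.6, with a log2 change of -0.07 ± 0.10 (adjusted p = 0.567 by edgeR). A further 10 factors were in the endoderm table only. Beside those given above, HNF4A was at 78.8 to 83.9 CPM, EOMES at 21.5 to 24.8, HHEX at 2.9 to 4.06, KLF5 at 2.47 to 3.62 and GSC at 1.69 to 2.26.

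Surface and secreted markers of endoderm rose in 6 of 7 tested genes, with a list median of 3.37. CDH2, N-cadherin, was at 1931, 1744 and 1886 CPM against 39.6, 44.5 and 41.2 (5.47 ± 0.09). NTN4, a netrin, was at 20.5 to 22.7 CPM against 0.188 to 0.326 (6.40 ± 0.24). CPE, a carboxypeptidase of secretory granules, was at 230 to 235 CPM against 21.8 to 23.1 (3.37 ± 0.07), and KIT, a receptor tyrosine kinase, at 272 to 329 against 59.8 to 62.7 (2.32 ± 0.08). SEMA3E was the member that fell, at 322 to 355 CPM against 742 to 802 (-1.19 ± 0.06). NTN4 and SEMA3E had no shared transcript.

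Genes of pluripotency fell in 22 of 23 tested members, with a list median of -1.35. All 22 had groups that did not overlap. DNMT3B, the de novo DNA methyltransferase of early embryos, was at 279, 271 and 261 CPM in endoderm and at 1923, 1979 and 2050 in hPSC (-2.88 ± 0.08, adjusted p = 1.6e-17 by edgeR). TERF1, a telomere protein, was at 81.5 to 95.2 CPM against 556 to 624 (-2.76 ± 0.08), and PRDM14, a repressor of differentiation, at 7.94 to 9.23 against 48.3 to 49 (-2.47 ± 0.10). The fall of the core factors was partial. POU5F1 was at 295, 365 and 337 CPM against 1045, 954 and 968 (-1.57 ± 0.08). NANOG was at 19.8 to 24.6 CPM against 55.9 to 59.5 (-1.43 ± 0.10), and its fall was smaller, -0.62 ± 0.10, on shared transcripts. On shared transcripts the falls of PRDM14 (-3.71) and L1TD1 (-2.37) were larger than those over all transcripts.

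DPPA4 (-1.96 ± 0.07), the retroelement-derived L1TD1 (-1.35 ± 0.08), the RNA-binding LIN28A (-1.34 ± 0.07) and ZFP42 (-1.06 ± 0.08) also fell. PODXL, a sialomucin that carries stem cell surface epitopes, rose against the rest of the list, from 3285 to 3442 CPM in hPSC to 9908 to 10529 in endoderm (1.60 ± 0.08). It kept that direction on total counts (1.00) and on shared transcripts (1.57). The list has members whose direction changed on shared transcripts: there 16 fell and 4 rose of those tested.

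Markers of other cell types were measured for the same libraries. Of 21 mesoderm markers, 4 were tested: PDGFRA, a growth factor receptor, rose from 1.96 to 3.72 CPM to 85.4 to 115 (5.26 ± 0.16), PDGFRB rose by 2.63 ± 0.09, and 3 of the 4 rose in all (2 of 4 on total counts). TBX6 fell by 0.94 ± 0.33, a call lost without endoderm replicate 1 (-0.78) or without hPSC replicate 2 (-0.64). PDGFRA, PDGFRB and TBX6 had no transcript in both tables. TBXT was at 1.59 to 2.53 CPM and HAND1 at 21.5 to 27.4 in the endoderm table. Of 20 neuroectoderm markers, NES rose from 265 to 358 CPM to 643 to 813 (1.19 ± 0.09, with no shared transcript) and OTX1 did not pass (adjusted p = 0.689 by edgeR). PAX6 was at 0.453 to 1.94 CPM in endoderm. Of 15 extraembryonic markers 0 were in both tables. Of these, 5 had endoderm levels: APOA1, an apolipoprotein made by visceral endoderm and liver, at 4687 to 5466 CPM, APOA2 at 105 to 109, GATA3 at 87.1 to 99.4, GATA2 at 13.9 to 17.3 and CDX2 at 3.17 to 3.71. The part of other cell types in the changes was not tested.

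Nodal and activin genes rose in 17 of 24 tested members and fell in 4, with a list median of 0.63 (0.03 on total counts, where 12 rose and 8 fell). Among ligands, NODAL was at 41.1, 44.4 and 42.4 CPM in endoderm against 1.09, 1.83 and 0.626 in hPSC (5.17 ± 0.19, adjusted p = 2.13e-15 by edgeR). LEFTY1, an inhibitor of Nodal that Nodal itself induces, was at 4.07 to 5.57 CPM against 0.188 to 0.507 (4.03 ± 0.40), and GDF3 at 29.6 to 34.3 against 11.3 to 13.2 (1.38 ± 0.11). FST, follistatin, which binds and blocks activin, was at 431, 439 and 462 CPM against 22.8, 23.5 and 21.9 (4.29 ± 0.08). The related FSTL1 was at 2851 to 3012 CPM against 613 to 627 (2.23 ± 0.08).

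The proteases that cut the Nodal precursor rose: FURIN from 44.9 to 54.7 CPM to 380 to 393 (2.95 ± 0.08) and PCSK6 from 2.32 to 4.04 CPM to 41.8 to 46 (3.89 ± 0.15). Of the receptors, ACVR1B was at 170 to 186 CPM against 55 to 56.4 (1.68 ± 0.07). TDGF1, the co-receptor of Nodal, fell from 552 to 593 CPM to 239 to 267 (-1.18 ± 0.07). Inside the cell, the inhibitor SMAD7 was at 47.5 to 55.5 CPM against 4.13 to 6.2 (3.36 ± 0.13), and SMAD4, the shared partner of the SMADs, at 42 to 45.7 against 77.6 to 82.4 (-0.85 ± 0.08). The call of SMAD4 was lost by limma on TPM, where it changed by -0.14. PCSK6 and SMAD4 had no shared transcript. CER1, a secreted Nodal inhibitor, was listed for endoderm only, at 29.3 to 29.7 CPM.

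Wnt genes rose in 15 of 27 tested members and fell in 8. Their median was 0.36 and took the other sign, -0.24, on total counts. Of ligands and their export, WNT3 was at 26.7, 27.8 and 30.1 CPM against 0.942, 0.783 and 1.56 (4.66 ± 0.19), and PORCN, which lipidates Wnts, at 81.9 to 87.6 against 11.5 to 15.6 (2.66 ± 0.10). Of receptors, FZD4 was at 459, 475 and 475 CPM against 18.3, 16.8 and 15.7 (4.80 ± 0.08), ROR2 at 181 to 193 against 10.2 to 11.5 (4.09 ± 0.08) and LRP5 at 345 to 365 against 70.9 to 87.6 (2.13 ± 0.08). FZD5 went the other way, from 70.6 to 75.7 CPM in hPSC to 20.6 to 26.5 (-1.60 ± 0.10).

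Secreted Wnt antagonists moved in both directions. FRZB was at 170.0, 174 and 199.6 CPM in endoderm against 7.75, 6.46 and 4.63 in hPSC (4.86 ± 0.12), and DKK3 at 187 to 193 against 24.6 to 26.4 (2.92 ± 0.07). SFRP1 was at 426 to 445 CPM against 1007 to 1088 (-1.27 ± 0.06) and SFRP2 at 143 to 152 against 409 to 477 (-1.62 ± 0.07). The related ligases RNF43 and ZNRF3, which remove Wnt receptors, moved apart: RNF43 rose from 0.456 to 1.16 CPM to 19.8 to 21.2 (4.48 ± 0.22) and ZNRF3 fell from 52.3 to 52.4 CPM to 18.7 to 20.9 (-1.39 ± 0.09). On shared transcripts DKK3 rose by 1.97 and RNF43 by 3.59, and LRP5 and ZNRF3 had none. Of the nuclear factors, TCF7 was at 12.2 to 14.1 CPM against a mean of 0.455 ± 0.287 (SD, n = 3), a rise of 4.86 ± 0.29 with no shared transcript, and TCF7L1, a repressor, at 45.3 to 52.7 against 116 to 123 (-1.32 ± 0.08).

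BMP genes rose in 11 of 12 tested members and 1 did not pass, with a median of 1.73. On total counts 9 rose and 2 fell. BMP4, a ligand, was at 241, 243 and 252 CPM against 1.81, 1.96 and 2.25 (6.92 ± 0.10, adjusted p = 4.13e-21 by edgeR), with 6.18 on shared transcripts, and BMP7 at 62.7 to 69.3 against 20 to 21.8 (1.69 ± 0.09). BMPR2, a receptor, was at 89.9 to 95.1 CPM against 13.5 to 15.5 (2.67 ± 0.09). BAMBI, a decoy receptor, was at 333, 360 and 361 CPM against 16.2, 16.1 and 16 (4.45 ± 0.08). The target genes MSX2 (40.8 to 50.7 CPM against 0.29 to 0.456, 6.88 ± 0.19), ID2 (2.22 ± 0.08) and ID1 (1.78 ± 0.08) rose with them. BMP2 was listed for endoderm only, at 178 to 193 CPM, and the inhibitor SMAD6 at 266 to 289.

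FGF genes split, with 9 higher and 8 lower of 19. FGFR4 was at 792, 827 and 832 CPM against 71.7, 77.9 and 82.2 (3.40 ± 0.07), and FGFR1 at 2188 to 2255 against 595 to 635 (1.85 ± 0.07). Feedback genes and transcription factors downstream of FGF fell: ETV4 from 91.6 to 96.8 CPM to 21.6 to 27.6 (-1.89 ± 0.09), ETV5 by 0.99 ± 0.13 and SPRY4 by 0.85 ± 0.08. FGF2, the growth factor of stem cell culture, was listed for hPSC only, at 179 to 201 CPM, and FGFR3 for endoderm only, at 464 to 513.

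Matrix and adhesion genes rose in 21 of 23 tested members and fell in 2, with a median of 2.32 (1.73 on total counts). Basement membrane genes rose together. COL4A1, a chain of type IV collagen, was at 8969, 8194 and 8923 CPM against 151, 171 and 142 (5.81 ± 0.10), and COL4A2 at 4354 to 4409 against 171 to 202 (4.54 ± 0.09). The laminin chains LAMB1 (2661 to 3031 CPM against 133 to 149, 4.31 ± 0.09), LAMA1 (3.78 ± 0.08) and LAMC1 (2.51 ± 0.08) rose. Of the integrins, ITGA5, of the fibronectin receptor, was at 925 to 934 CPM against 64.8 to 70.9 (3.77 ± 0.07). ITGB1 rose by 2.52 ± 0.08 and ITGAV by 2.32 ± 0.08, while ITGA6 fell by 0.67 ± 0.07. ITGAV and ITGA6 had no shared transcript.

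Adhesion genes of epithelia rose as well. CDH1, E-cadherin, was at 2464, 2197 and 2251 CPM against 731, 765 and 719 (1.64 ± 0.08), and EPCAM at 1917 to 2058 against 258 to 278 (2.87 ± 0.08). VIM, a filament of mesenchymal cells, rose from 102 to 113 CPM to 339 to 356 (1.70 ± 0.07).

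**Figure D3:**
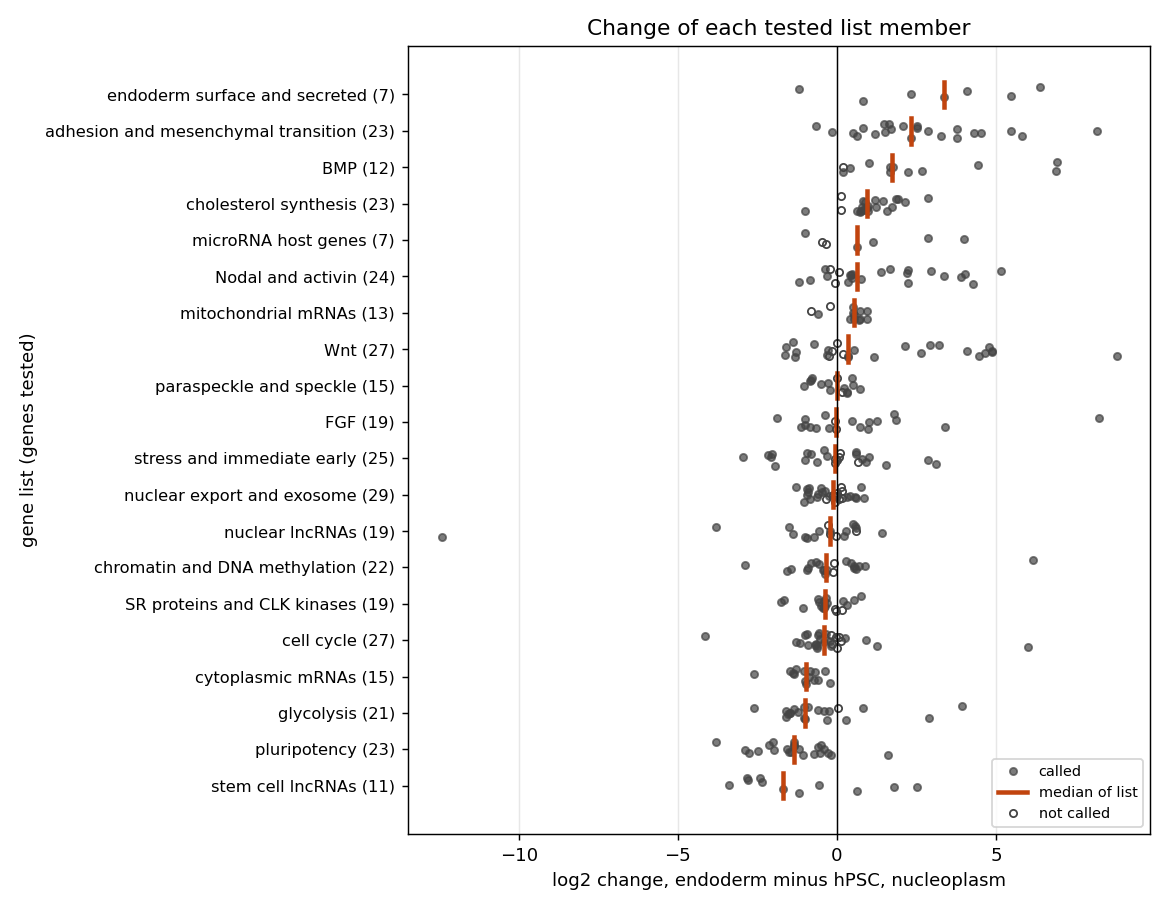
Log2 change between endoderm and hPSC nucleoplasm of each tested gene, by list, for lists with 7 or more tested genes. Filled points passed the test and open points did not, and the bar is the list's median. The medians of surface markers, adhesion and BMP genes lie to the right of 0, and those of pluripotency, glycolysis and stem cell lncRNAs to the left, with members on the other side in every one of these lists but BMP.

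Cholesterol synthesis and glycolysis moved apart. Enzymes of cholesterol synthesis and their regulators rose in 20 of 23 tested members and fell in 1, with a median of 0.96 (0.36 on total counts, where 16 rose and 3 fell). MSMO1, an oxidase late in the pathway, was at 196, 190.3 and 229 CPM in endoderm against 73.2, 69.3 and 65.2 in hPSC (1.57 ± 0.08, adjusted p = 4.66e-13 by edgeR). HMGCS1, which acts early, was at 261, 245 and 262 CPM against 94.3, 89.7 and 94.9 (1.46 ± 0.07). No endoderm library of either gene was as low as an hPSC library. SC5D (1.93 ± 0.08), DHCR7 (1.72 ± 0.07) and INSIG1 (1.18 ± 0.09) rose as well. PMVK fell from 12 to 14.7 CPM to 5.47 to 7.33 (-1.01 ± 0.16).

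Glycolytic genes fell in 16 of 21 tested members and rose in 4, with a median of -1.01 (-1.60 on total counts). LDHA, lactate dehydrogenase, was at 106, 114 and 99.99 CPM against 678, 614 and 671 (-2.62 ± 0.07, adjusted p = 4.04e-17 by edgeR). PGK1 was at 169 to 191 CPM against 467 to 512 (-1.48 ± 0.07), GAPDH at 906 to 1090 against 2647 to 2939 (-1.48 ± 0.09) and HK2 at 45.4 to 50.7 against 109 to 112 (-1.22 ± 0.08). ALDOA (-1.61 ± 0.07), ALDOC (-1.61 ± 0.11) and GPI (-1.53 ± 0.08) fell likewise. Transporters went against the enzymes. SLC2A3, the glucose transporter GLUT3, was at 13839, 13652 and 14183 CPM against 954, 907 and 863 (3.94 ± 0.09). The lactate carriers SLC16A3 (92.2 to 100.1 CPM against 12 to 13.6, 2.88 ± 0.09) and SLC16A1 (0.82 ± 0.08) rose too, the first of them with no shared transcript.

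Promoters of both lists are shown because their members moved together. Sequences are from RefSeq (GRCh38.p14), 250 bases before a start site, 5′ to 3′ on the gene's strand. CCAAT, the box bound by NF-Y, and its complement ATTGG are in capitals in the cholesterol genes, and ACGTG and its complement CACGT, the core of the hypoxia response element, which overlaps the E-box, in the glycolytic genes. The HMGCS1 window is chr5:43313413-43313662 (minus strand), that of MSMO1 chr4:165327419-165327668 (plus), that of LDHA chr11:18394313-18394562 (plus) and that of PGK1 chrX:78103998-78104247 (plus).
HMGCS1: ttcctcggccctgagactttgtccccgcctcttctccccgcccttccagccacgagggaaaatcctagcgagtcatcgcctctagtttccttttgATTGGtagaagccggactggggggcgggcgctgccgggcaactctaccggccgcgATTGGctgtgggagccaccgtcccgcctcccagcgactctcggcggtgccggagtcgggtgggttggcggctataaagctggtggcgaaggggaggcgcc
MSMO1: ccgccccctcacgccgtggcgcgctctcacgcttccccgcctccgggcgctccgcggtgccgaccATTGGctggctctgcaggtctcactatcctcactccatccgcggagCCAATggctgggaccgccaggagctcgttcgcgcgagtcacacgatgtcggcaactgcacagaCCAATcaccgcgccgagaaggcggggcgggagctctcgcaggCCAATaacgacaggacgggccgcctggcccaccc
LDHA: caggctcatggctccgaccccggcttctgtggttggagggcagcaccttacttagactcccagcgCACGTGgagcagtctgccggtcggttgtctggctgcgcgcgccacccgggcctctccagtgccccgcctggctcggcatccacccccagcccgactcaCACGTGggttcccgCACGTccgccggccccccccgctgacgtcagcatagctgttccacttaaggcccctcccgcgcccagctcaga
PGK1: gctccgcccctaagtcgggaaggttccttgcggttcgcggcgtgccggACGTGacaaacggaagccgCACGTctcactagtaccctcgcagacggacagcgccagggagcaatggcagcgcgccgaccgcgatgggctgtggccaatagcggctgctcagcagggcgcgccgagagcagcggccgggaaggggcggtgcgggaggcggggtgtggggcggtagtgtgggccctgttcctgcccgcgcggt
CCAAT stood in a promoter of 15 of 17 cholesterol genes with an entry, and in 37% of all 27305 symbols. Of the 14 that rose, 13 held it. ACGTG stood in a promoter of 12 of 19 glycolytic genes with an entry, against 21.7% of all symbols, and in 10 of the 16 that fell. A sterol response form, TCACNCCAC, was found in 1 of the 17, SREBF2, and in 1.09% of all symbols. Matches were sought on both strands and any promoter of a symbol counted, and these forms were chosen from several after matches were seen. A match is a description and not a binding site.

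Among nuclear lncRNAs, 6 of 19 tested rose and 9 fell (1 and 14 on total counts). MALAT1 was at 951, 1407 and 1033 CPM in endoderm and at 765, 941 and 516 in hPSC, a rise of 0.61 ± 0.15 that was 0.02, and not called, on total counts. The lowest endoderm library lay just above the highest hPSC library. DESeq2 gave an adjusted p of 0.0501. PVT1 fell from 49.2 to 64.6 CPM to 2.89 to 6.34 (-3.81 ± 0.18), with no shared transcript. The snoRNA hosts SNHG6 (-1.52 ± 0.15), SNHG5 (-1.37 ± 0.11) and SNHG14 (-0.93 ± 0.08, and -2.02 on the small part of its counts on shared transcripts) fell, and FTX rose by 1.42 ± 0.10, but by 0.41 and without a call on shared transcripts. Of lncRNAs of stem cells, 8 of 11 tested fell, with a median of -1.68. ESRG, a long noncoding RNA of human pluripotent cells, was at 153, 155 and 164 CPM against 1614, 1661 and 1702 (-3.40 ± 0.07). LNCPRESS2 (-2.84 ± 0.12), LINC00678 (-2.43 ± 0.08) and DANCR (-1.20 ± 0.08) fell. LNCPRESS2 had no shared transcript, and LINC00678 fell by 1.23 on shared ones, which held 17.8% of its counts in endoderm and 7.82% in hPSC. Of the counts of ESRG 12.3% in hPSC and 0% in endoderm were on shared transcripts. LINC01356 rose from 6.3 to 6.7 CPM to 35.4 to 37.6 (2.51 ± 0.11) and LINC00458 from 1.37 to 2.63 to 6.17 to 7.42 (1.79 ± 0.26). LINC01194, at 176 to 180 CPM, and LNCPRESS1, at 40.1 to 48.1, were in the hPSC table only. LINC00261, an endoderm lncRNA next to FOXA2, was in the endoderm table only, at 9.86 to 12.9 CPM.

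MicroRNA host genes were described because the mature microRNAs of pluripotent cells come from one of them, MIR302CHG. It did not follow the pluripotency genes. It was at 470, 392 and 586 CPM in endoderm and at 240, 411 and 275 in hPSC, overlapping groups with a called rise of 0.64 ± 0.15. That change was 0.05 on total counts and -0.21 on shared transcripts, where it did not pass. MIR34AHG, the host of a microRNA induced by p53, was at 24.2, 18.2 and 20.6 CPM against 2.39, 3 and 3.19 (2.86 ± 0.17), with no shared transcript. Of 7 hosts tested 4 rose and 1 fell. Mature sequences (RefSeq, GRCh38.p14) that lie inside these genes on their strand are given with the seed, bases 2 to 8, in capitals. The 4 miR-302 members share 1 seed, and miR-367 and miR-34a each have another.
hsa-miR-302a-3p: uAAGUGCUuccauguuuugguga
hsa-miR-302b-3p: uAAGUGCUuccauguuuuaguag
hsa-miR-302c-3p: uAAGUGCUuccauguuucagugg
hsa-miR-302d-3p: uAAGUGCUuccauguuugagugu
hsa-miR-367-3p: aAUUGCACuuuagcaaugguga
hsa-miR-34a-5p: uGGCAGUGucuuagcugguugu
The libraries measured the host transcripts, not these small RNAs.

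Abundant cytoplasmic mRNAs fell in all 15 tested members, with a median of -0.98. EEF1A1, the translation elongation factor, was at 4787 to 5114 CPM against 9541 to 10620 (-1.02 ± 0.08), RPS6, a ribosomal protein, at 327 to 364 against 820 to 945 (-1.34 ± 0.07) and ACTB at 2377 to 2582 against 2827 to 2954 (-0.23 ± 0.08). Mitochondrial mRNAs rose in 10 of 13 and fell in 1, with a median of 0.54 that was -0.06 on total counts. MT-ND4 was at 21996, 19624 and 23002 CPM against 10897, 11603 and 11090 (0.94 ± 0.08), and MT-CO1 rose by 0.71 ± 0.08 (0.12, not called, on total counts). MT-CO3 rose by 0.43 ± 0.08, with no shared transcript, and had the other sign, -0.17, on total counts. The member that fell, MT-ND3, did so by 0.59 ± 0.26 through hPSC replicate 2, at 1608 CPM against 637 and 521 in the others; without that library the change was 0.09 and not called.

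Genes that act on nuclear RNA moved in both directions. Of SR proteins and their kinases 12 of 19 fell and 4 rose (17 fell on total counts). SRSF7 was at 124 to 127 CPM against 418 to 438 (-1.77 ± 0.06), SRSF3 at 168 to 171 against 480 to 589 (-1.67 ± 0.07), and TRA2B fell by 1.06 ± 0.07. Of paraspeckle and speckle genes 6 rose and 7 fell of 15. Of 29 export and exosome genes 6 rose and 13 fell. RAN, the GTPase of nuclear transport, fell by 1.28 ± 0.07 and ALYREF, an export adaptor, by 0.92 ± 0.09. ZFC3H1, which ties nuclear RNA to the exosome, rose by 0.85 ± 0.09.

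Cell cycle genes fell in 17 of 27 and rose in 4. CDKN1C, an inhibitor of cyclin-dependent kinases, was at 59.2, 67.2 and 68.2 CPM against 0.797, 1.43 and 0.751 (6.01 ± 0.16, and 5.18 on shared transcripts). CDK6 was at 0.617 to 1.49 CPM against 18.2 to 23.2 (-4.16 ± 0.22), with no shared transcript. PCNA (-1.30 ± 0.08), MCM5 (-1.15 ± 0.07) and CCNA2 (-0.95 ± 0.08) fell, while MKI67 (1.25 ± 0.07, with no shared transcript) and TOP2A (0.92 ± 0.07) rose. Of 25 stress genes 8 rose and 11 fell. HSPA5, the chaperone of the endoplasmic reticulum, was at 6699, 6433 and 6666 CPM against 765, 771 and 758 (3.11 ± 0.08), and IER3 rose by 2.87 ± 0.13. DDIT4, an inhibitor of mTOR, fell from 119 to 130 CPM to 15.3 to 18 (-2.95 ± 0.09), ATF5 fell by 2.18 ± 0.12 and MYC by 1.96 ± 0.10.

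Of 22 chromatin genes 8 rose and 12 fell. KDM6B, which removes methyl groups from histone H3 lysine 27, was at 44.4, 54.1 and 46.5 CPM against 0.942, 0.391 and 0.688 (6.16 ± 0.18), with no transcript in common between the tables. DNMT3A fell by 1.45 ± 0.08 and RNF2, a Polycomb ligase, by 1.58 ± 0.11.

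The same cells' other fractions show where the nucleoplasm differs. Of the genes tested in each, 31.8% rose and 31.9% fell in chromatin, 26.1% and 24.9% in cytoplasm, and 26.2% and 25.1% in the nucleus. The change from hPSC to endoderm was compared between nucleoplasm and chromatin with an interaction term over 12 libraries. It differed for 3730 of 11563 genes (32.3%), with 20% more positive and 12.2% more negative in nucleoplasm. Against cytoplasm it differed for 4002 of 11555 genes (34.6%), with 20.2% more positive and 14.4% more negative. On total counts the splits turned: 1121 more positive and 3765 more negative against chromatin (2315 and 1415 with TMM), and 786 and 6800 against cytoplasm (2334 and 1668). Upper-quartile scaling gave 1912 and 2576 against cytoplasm. Over all genes the median difference from chromatin was 0.05 with TMM and -0.37 on total counts. From cytoplasm it was 0.02 and -0.72. The differences of lists below are given with TMM only and depend on it. Both comparisons use the same 6 nucleoplasm libraries. They treat all libraries as independent. The labels do not say whether same-numbered fractions of a cell type came from a single preparation, and such a pairing was not modelled.

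Many matrix and adhesion genes rose further in nucleoplasm than in the other fractions. Of 23, 17 had a more positive change than in chromatin and 15 than in cytoplasm, and the others did not pass. The list median was 2.32 in nucleoplasm, 1.34 in chromatin and 1.35 in cytoplasm. COL4A1 changed by 5.81 in nucleoplasm, 4.36 in chromatin and 2.57 in cytoplasm. CDH1 changed by 1.64, 0.03 and 0.03 and ITGB1 by 2.52, 0.52 and 0.69. HSPA5 changed by 3.11, 1.46 and 0.78. Mitochondrial mRNAs, which changed by a median of 0.54 in nucleoplasm, had medians of -1.77 in chromatin and -0.52 in cytoplasm, and 11 of 13 differed from chromatin and 9 from cytoplasm. Their median difference with TMM was 2.33 from chromatin and 0.76 from cytoplasm. The share of mitochondrial counts in chromatin was 1.38% to 1.62% in endoderm and 4.58% to 5.87% in hPSC, and its part in these differences was not tested.

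Cytoplasmic mRNAs had a median change of -0.98 in nucleoplasm, -1.59 in chromatin and -0.32 in cytoplasm. Of 15, 13 differed upwards from chromatin and 9 downwards from cytoplasm. Glycolysis had the same order, with medians of -1.01, -1.23 and -0.48. LDHA changed by -2.62 in nucleoplasm, -3.63 in chromatin and -1.35 in cytoplasm. Of 23 pluripotency genes, 12 had a more negative change in nucleoplasm than in cytoplasm and 2 a more positive one. Against chromatin 9 had a more positive change and the others did not pass. LIN28A changed by -1.34 in nucleoplasm and 0.11 in cytoplasm. SR protein genes had a median of -0.37 in nucleoplasm and 0.18 in chromatin, where 10 of 19 differed downwards and 1 upwards. In the cholesterol list medians were 0.96, 0.75 and 1.05, and 5 genes were more positive and 2 more negative than in cytoplasm.

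**Figure D4:**
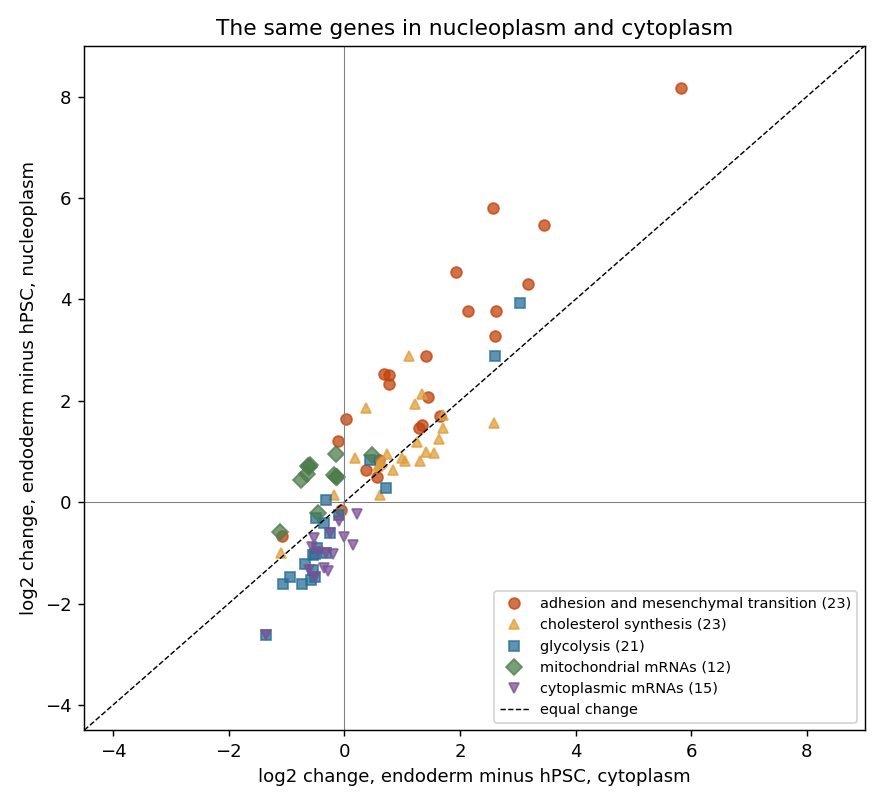
Log2 change from hPSC to endoderm in cytoplasm (x axis) and nucleoplasm (y axis) for genes of 5 lists, 1 point a gene, with the number plotted in parentheses and a dashed line at equal change. Most adhesion and mitochondrial genes lie above the line (medians 2.32 against 1.35 and 0.54 against -0.52), and cytoplasmic and glycolytic mRNAs mostly below it.

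RN7SL1 changed differently between fractions. Its fall of 6.62 in nucleoplasm stood beside a change of 0.32 in chromatin, where endoderm was at 62.9, 39.7 and 28.7 CPM and hPSC at 31.3, 59.1 and 15.6. In cytoplasm it changed by -1.23. The difference was -6.93 ± 0.81 from chromatin and -5.35 ± 0.59 from cytoplasm. VWF, von Willebrand factor, was at 92.7, 85.2 and 87.7 CPM in endoderm nucleoplasm and 1.45 to 2.05 in endoderm cytoplasm, with 0.933 to 1.72 in hPSC nucleoplasm and 1 to 1.53 in hPSC cytoplasm, a difference of 5.74 ± 0.35. VWF had no shared transcript. PCYOX1, a prenylcysteine oxidase, was at 378 to 426 CPM against 68.1 to 81.4 in nucleoplasm and at 92.9 to 106 against 114 to 160 in chromatin, a difference of 2.86 ± 0.18.

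Ectoderm was made from the same H1 line by 5 days in DMEM/F12 with non-essential amino acids, b-mercaptoethanol, KOSR and the inhibitors A83-01, PNU-74654 and Dorsomorphin, without activin A or WNT3A. Against its 3 nucleoplasm libraries, from a table of its own, 9405 of 11827 genes (79.5%) differed, 38.7% higher and 40.8% lower in endoderm. Of the genes named here, the one labelled 5_8S_rRNA stood furthest apart (19.78 ± 0.64). It was at 4169, 12985 and 9819 CPM in endoderm and had 0 counts in ectoderm. The part of rRNA in the libraries was not tested. The unnamed ENSG00000289479 was at 105 to 121 CPM against 0 to 0.11, and ENSG00000290888 at 54.8 to 69.7 against 0 to 0.103. TDGF1, which had fallen from hPSC, was at 256, 269.7 and 243 CPM in endoderm and had 0 counts in ectoderm. COL21A1, a collagen, was at 44.3 to 47.2 CPM and ANGPT1, angiopoietin, at 47.7 to 67.6, both with 0 counts in ectoderm. DOT1L was at 277 to 288 CPM in ectoderm and had 0 counts in endoderm. MIAT was at 1208 to 1438 CPM in ectoderm. RSKR (92.9 to 94.8 CPM in ectoderm), U2AF1 (67.9 to 74.6), the unnamed ENSG00000280800 (27 to 104) and RAD52 (36.5 to 44.4) also had 0 counts in endoderm. Counts limited to Ensembl transcripts in both tables gave no value for 9 of these 12 genes. An isoform change and a change in what was assembled cannot be told apart for them. On total counts 2587 genes were higher and 7618 lower (4582 and 4823 with TMM). This comparison shares its endoderm libraries with that against hPSC.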

How the data were processed

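The deposited tables hold transcripts assembled separately for each cell type, with estimated counts and TPM per library; per the submitters' processing notes STAR, RSEM and the build hg38 were used, with versions and settings not given in the sources used here. Expected counts by the authors were summed per Ensembl gene and rounded to whole numbers; deposited TPM values were summed for 1 alternative. Rows without an Ensembl gene (1.09% to 7.73% of counts) were left out. A total of 1 column of per-sample values belonged to no sample here and was not used. Genes of both tables with enough counts (edgeR filterByExpr, minimum count 10) were scaled with TMM and tested with edgeR 4.0.16 (quasi-likelihood, R 4.3.3), Benjamini-Hochberg adjusted over all genes tested and called at 0.05. The fractions were compared with an interaction term. CPM values use the TMM-scaled totals of the genes tested. The scripts were tested on simulated data. Alternatives used DESeq2 1.42.0, limma 3.58.1 with a pseudocount of 1 on TPM, other scalings and filters, and each library left out. Named genes are the 15 largest called changes each way with a symbol and 2 without, at a mean of at least 10 CPM in the higher group and without overlap, members of 26 lists, and the 6 largest each way for the other comparisons. Some list members are not reported here. The members and lists were chosen with earlier results of these data known. No pair of replicates held identical values, and each pair differed beyond sampling noise (chi-square per degree of freedom 6.03 to 24.7). Gene positions are from GENCODE release 29 (GRCh38), and promoter and microRNA sequences from RefSeq (GRCh38.p14).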

Additional observations from a re-analysis of the deposited data

Results flagged for a closer look

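For these genes the change from hPSC to endoderm differed between fractions by the interaction test (edgeR, adjusted p under 0.05). Each value is a log2 difference, nucleoplasm minus the other fraction. Counts limited to Ensembl transcripts in both tables gave no value for 8 of the 12 genes against chromatin. Against cytoplasm they gave none for 9 of 12.

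Against chromatin, the change was more positive in nucleoplasm for ENSG00000280614 (6.38), CST1 (3.30), RGPD5 (3.05), HEATR5A (3.01), PCYOX1 (2.86) and ENSG00000279483 (2.78). HEATR5A (-4.16) and ENSG00000279483 (-5.66) fell in nucleoplasm, and fell more in chromatin. There endoderm was at 0 to 0.393 and 0 to 0.717 CPM. In TPM, HEATR5A was at 4.38 to 8.57 in endoderm nucleoplasm against 3.71 to 4.45 in hPSC. RGPD5 has near-identical copies, and its call was lost under DESeq2 (adjusted p = 0.256) and on leaving out single libraries, where it ranged from 2.48 to 8.95. HEATR5A lost its call without endoderm chromatin replicate 1 (2.36) or 3 (2.42), and reached 6.48 with another library left out. The change was more negative for ENSG00000280441 (-7.27), RN7SL1 (-6.93), ENSG00000278996 (-6.62), RESF1 (-4.53), NFXL1 (-3.99) and ENSG00000229492 (-3.79).

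Against cytoplasm it was more positive for ENSG00000276965 (11.26), SLX1A (9.01), ZNF135 (6.86), ENSG00000274333 (6.83), VWF (5.74) and SLC25A33 (4.74). SLX1A (-2.87), ZNF135 (-3.21), ENSG00000274333 (-5.17) and SLC25A33 (-2.74) fell in nucleoplasm, so for them more positive means a smaller fall. SLX1A, ZNF135 and ENSG00000274333 had 0 counts in endoderm cytoplasm. The change was more negative for U2AF1 (-10.88, with 0 counts in endoderm nucleoplasm), ENSG00000280441 (-6.91), RN7SL1 (-5.35), SMCHD1 (-4.20), PRICKLE2 (-3.47) and HMCN1 (-2.60). SLX1A and U2AF1 have near-identical copies. ENSG00000280441 was at 4641 CPM in hPSC nucleoplasm replicate 2 and at 7.14 and 2.94 in the others; without that library its differences were 0.99 from chromatin and 1.37 from cytoplasm, and neither was called. Its call against chromatin was also lost without any 1 of 8 other libraries (adjusted p from 0.0502 to 0.0826), and that against cytoplasm without endoderm nucleoplasm replicate 1. SLX1A (8.92 CPM) and ENSG00000274333 (4.94 CPM) had counts in endoderm nucleoplasm in replicate 2 alone. Without it their differences were 0.59 and -0.74, and neither was called.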

How the results depend on the processing

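Of 3153 values of 178 named genes under other settings, 3125 kept direction and call, 23 lost the call, 2 gained it (FOXA3, -0.66 on total counts and -0.33 by limma) and 3 changed direction. Many of these genes were named for large called changes, which favours a kept call, and missing values are not counted. The 3 that changed direction were MIR302CHG on shared transcripts (-0.21), MT-CO3 on total counts (-0.17) and MT-ND3 without hPSC replicate 2 (0.09). With single libraries left out MT-ND3 ranged from -0.87 to 0.0856. Shared transcripts gave no value for 47 genes. CWF19L2 (-0.79) and SMAD4 (-0.14) lost their calls under limma on TPM, and ACTB without endoderm replicate 1 (-0.20). Of the differences between fractions, ENSG00000280441 changed sign without hPSC nucleoplasm replicate 2, ranging from -7.85 to 0.99 against chromatin and from -7.49 to 1.37 against cytoplasm over the libraries left out. ENSG00000274333 did so without endoderm nucleoplasm replicate 2, ranging from -0.74 to 7.43. The causes were not tested.

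Requiring a 2-fold change left 3751 of the 8871 genes. On shared transcripts, where fewer genes were tested, 2360 genes differed from chromatin and 2316 from cytoplasm. On total counts 7586 differed from cytoplasm. Leaving out 1 library gave 8459 to 8707 genes against hPSC, 3031 to 5505 for nucleoplasm against chromatin, 3430 to 4886 against cytoplasm and 9066 to 9420 against ectoderm. Without hPSC chromatin replicate 3 the count against chromatin was 5505. The replicate block gave 8794, 3558, 3717 and 9204 genes in the same order, and it took the call from MT-ND3 (-0.41) and from both differences of ENSG00000280441. Same-numbered endoderm and hPSC libraries did not deviate together (r of 0.06, 0.01 and -0.03). Such values cannot show whether samples were handled in pairs, and the labels name no pairing. DESeq2 called 8537 genes against hPSC.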
